A study of Mus musculus with 9 samples.

Results

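The collagen alpha chains are the genes whose mouse symbol is Col, a number, a and a number. Of 44 such genes among the 54232 genes counted in each library, 39 had 10 or more counts in at least 3 of the 9 libraries, a level that 18003 genes reached in all. The 39 chains were 11 fibrillar chains, 8 chains of the FACIT group (fibril-associated collagens with interrupted triple helices), 6 type IV chains of basement membranes, 4 beaded-filament type VI chains, 2 type VIII chains, 2 multiplexins, 4 transmembrane chains, and Col7a1 and Col26a1. Col6a4, Col6a5, Col10a1, Col19a1 and Col28a1 stayed below that level and were left out.

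Every collagen molecule is a triple helix of alpha chains, either of 1 kind or of partner chains coded by separate genes, so that a partner's supply can limit how much of a trimer is made. Fibrillar collagens form cables in connective tissue and cartilage, type IV collagens form the sheet on which an epithelium rests, and type VI collagens form fine filaments between the sheet and the fibrils. In the inner ear, types II, IX and XI build both the cartilage around the cochlea and the collagen fibrils of the tectorial membrane, the extracellular sheet above the sensory cells that the duct epithelium secretes. Loss of type IV alpha 3, 4 or 5 chains causes Alport syndrome, with kidney disease and hearing loss, and mutations in type II or XI chains cause Stickler syndrome, which also includes hearing loss.

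Bulk RNA was sequenced from cochlear ducts that were dissected out of mouse embryos at E14.5, with the 2 inner ears of 1 embryo in each library and 3 libraries per genotype. WT embryos were Prdm16 +/+, heterozygotes were Prdm16 cGT/+ (labelled Prdm16-het), and null embryos were Prdm16 cGT/cGT (labelled Prdm16-null). The cGT allele is a gene trap carried in the germ line, so it was present in all cells of the duct and its surroundings, and the strain was kept on the FVB/NJ background. The groups came from matings between heterozygotes, and the embryos are littermates in each genotype. The values are counts per gene, shown as CPM (counts per 1000000 after TMM scaling) for each of the embryos numbered 1 to 3 and as mean ± SD (n = 3). P-values come from edgeR's quasi-likelihood test with Benjamini-Hochberg adjustment over all genes tested, and measure the spread between embryos. In a whole duct, fewer cells of a type and less RNA per cell cannot be told apart.

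Libraries held 24095322 to 30819118 counts. Prdm16 RNA was lower in null than in WT ducts (log2 fold change -3.12, SE 0.146, edgeR adjusted p = 1.48e-04), with 11.6% of the WT level left, and its null libraries lay below every other library. The libraries differed in tissue around the duct. The summed level of 16 mesenchyme markers (among them Tbx18, Pou3f4 and Prrx1) was 542, 774 and 111 CPM in WT 1, 2 and 3, ran from 85.2 to 108 CPM in heterozygotes, and was 89.9, 67.6 and 725 CPM in Null 1, 2 and 3. All 16 of these markers and all 6 endothelial markers were higher in each of WT 1, WT 2 and Null 3 than in each of the other 6 libraries, against 4.53% of all genes. Null 3 also held cartilage markers. Acan (aggrecan) reached 501 CPM there against at most 7.02 CPM in the other 8 libraries, Matn1 390.1 against at most 13.6, and Hapln1 515 against at most 7.74, while Cnmd was high in every library and Matn4, at 294 CPM in Null 3, was also at 70.6 and 78.2 CPM in Null 1 and 2 against at most 26.2 CPM in WT and heterozygote libraries. The 5 melanocyte markers summed to 87.1, 132 and 55.2 CPM in WT 1, 2 and 3, to 20.5 to 40.4 CPM in heterozygotes, and to 14.2, 12.2 and 42.9 CPM in Null 1, 2 and 3. All 5 were lower in each null library than in each WT library, where this held for 8.91% of all genes, with edgeR adjusted p between 0.0551 and 0.323. The 5 blood markers summed to 59.1 to 164 CPM in WT, 22.5 to 41 CPM in heterozygote and 49 to 88.5 CPM in null libraries. The 12 epithelial markers of the duct were present in every library. They summed to 11610, 11216 and 12763 CPM in WT 1, 2 and 3, to 13530, 13272 and 13067 CPM in heterozygotes 1, 2 and 3, and to 15304, 18482 and 14086 CPM in Null 1, 2 and 3. The genotypes did not overlap in this sum, in the order WT, heterozygote, null. For 5 of the 12, each null library was above each WT library, against 10.1% of all genes. Fold changes below that moved by over 1.5 times without Null 3 are given with and without it, and fits without WT 1, WT 2 and Null 3 and with a mesenchyme covariate were also made. The part of cartilage, melanocytes, blood and the share of duct epithelium in the results was not tested.

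In WT ducts the chains spanned a wide range of levels per length (CPM per kb of exon, which allows comparison between genes). Col9a2, a FACIT chain of type IX, was the highest at 867 ± 8.95, followed by Col2a1 at 553 ± 11.1, the chain of the type II homotrimer. Col18a1, a basement membrane multiplexin that is cleaved to endostatin, stood at 241 ± 3.36, Col9a3 at 229.7 ± 3.23 and Col9a1 at 127 ± 3.25. Type II and type IX chains were thus 4 of the 5 highest, in libraries where the 9 cartilage markers summed to 1276 to 1345 CPM, nearly all of it Cnmd. Then came Col4a1 at 79.8 ± 5.95 and Col4a2 at 60.9 ± 3.95, the general pair of basement membranes, with Col11a2 at 60.3 ± 4.01, Col11a1 at 50.9 ± 4.41 and Col27a1 at 49 ± 3.58. Col4a2 and Col11a2 did not differ beyond their SD, nor did Col11a1 and Col27a1. Among the type IV chains, Col4a5 followed at 18 ± 0.5 and Col4a6 at 2.62 ± 0.236, and the Alport partners Col4a4 at 0.228 ± 0.0115 and Col4a3 at 0.0381 ± 0.00875 were far lower. Col1a1, the main chain of bone and skin, was at only 1.43 ± 0.344.

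**Figure D1:**
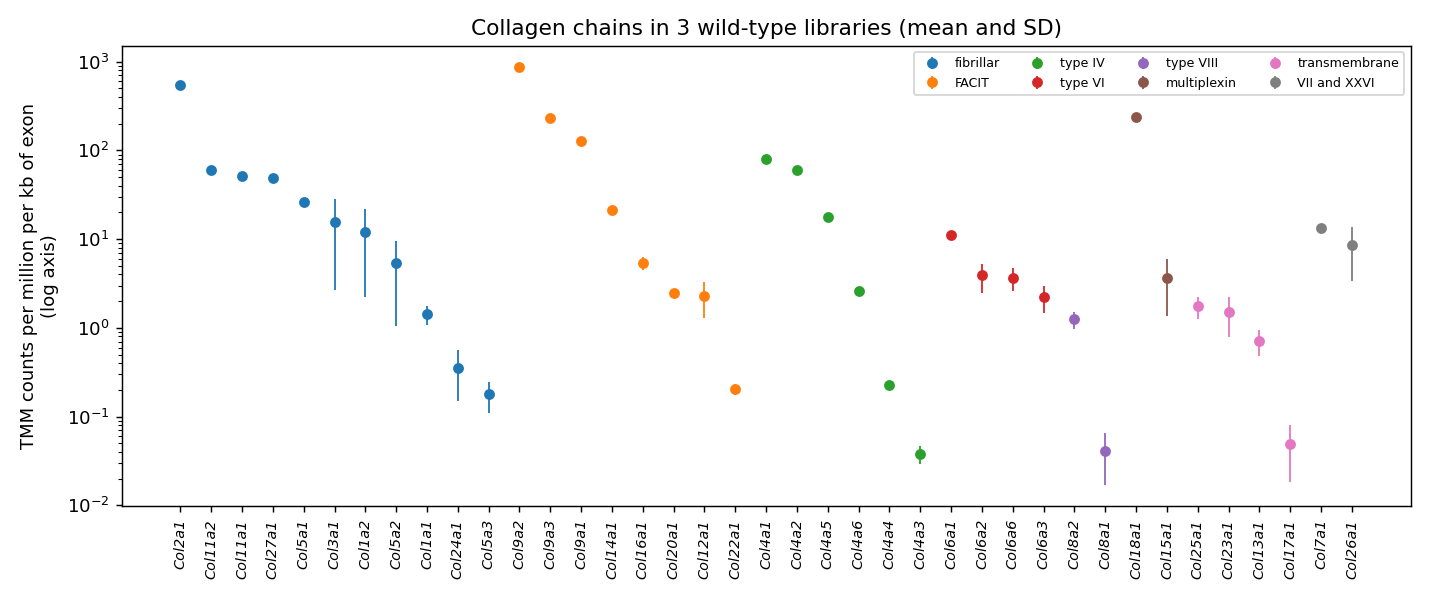
Level of the 39 chains in WT ducts as CPM per kb of exon on a log axis, grouped by structural class, with points for the mean and bars for the SD of 3 libraries. Col9a2 and Col2a1 lead at 867 and 553, and among the wide bars are those of Col3a1, Col1a2, Col5a2, Col15a1, Col26a1, Col24a1, Col8a1 and Col17a1.

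Collagen made up 1.33% to 1.56% of all counts in 8 of the libraries and 2.56% in Null 3. Null 3 was the highest of all 9 libraries for 28 of the 39 chains (71.8%, against 16% of all genes). Relative to the mean of Null 1 and 2, 18 chains were over 2-fold higher in Null 3 (46.2%, against 4.02% of all genes) and 13 were over 5-fold higher. The mean of WT 1 and 2 was over 2-fold that of WT 3 for 6 chains (15.4%, against 1.71% of all genes), and these 6, Col1a2, Col3a1, Col5a2, Col15a1, Col23a1 and Col26a1, were all among the 18. A further 12 chains were over 2-fold higher in Null 3 alone, among them Col1a1, Col12a1, Col24a1, Col2a1, Col9a1, Col11a1 and Col11a2. The remaining 21 chains were under 2-fold in both, and they include all 6 type IV chains, Col6a1, Col7a1, Col9a2, Col9a3, Col14a1 and Col18a1.

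**Figure D2:**
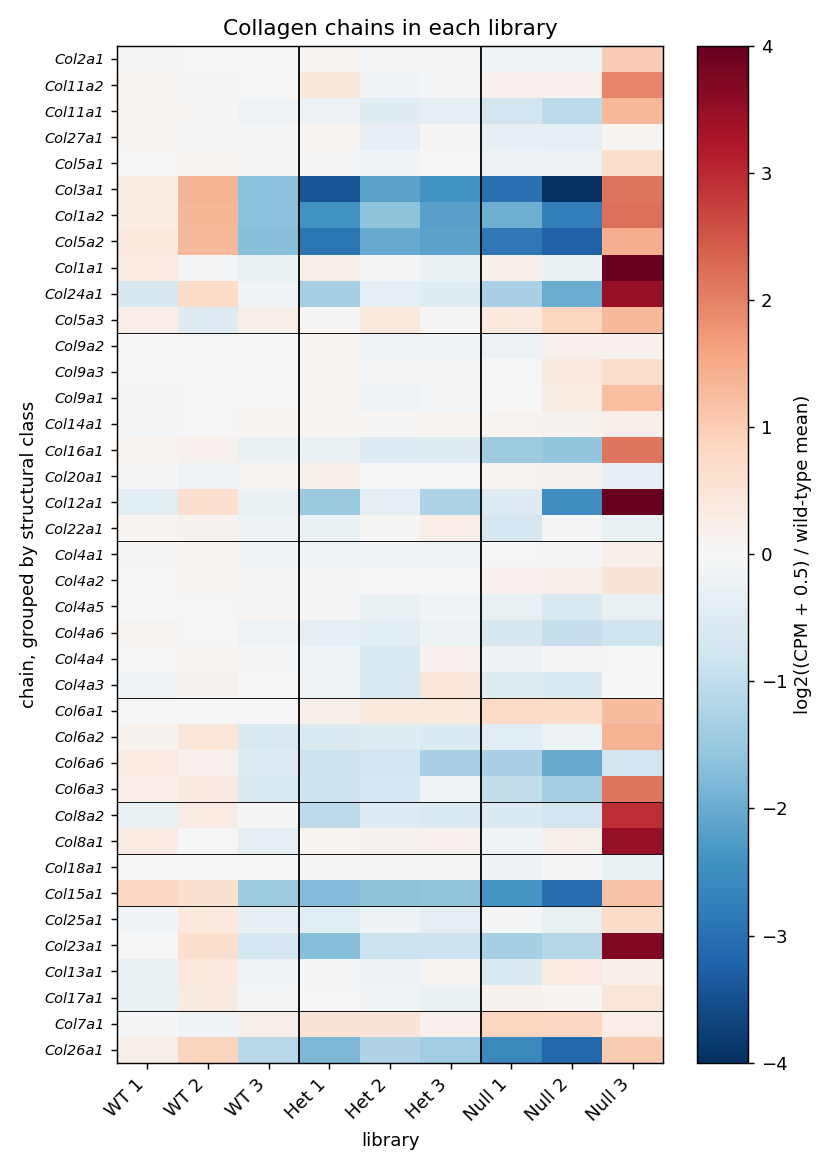
Colour shows the log2 ratio of each chain's CPM plus 0.5 to its WT mean on that log scale, with the 39 chains in rows by structural class and the 9 libraries in columns. Null 3 is red for most chains, WT 1 and 2 stand above WT 3 for Col3a1, Col1a2, Col5a2, Col15a1 and Col26a1, and Col6a1 and Col4a6 change from WT through heterozygote to null.

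Between null and WT ducts 37 chains were tested (Col4a3 and Col17a1 did not pass the filter on low counts). Col6a1 was called higher and Col4a6 lower, at an adjusted p under 0.05 and a log2 change over 0.5. That is 1 of 37 in each direction, where 0.92% of all genes tested were called higher and 0.786% lower. At an unadjusted p under 0.05 there were 9 chains, a share of 24.3%, against 12.2% of all genes, and without Null 3 there were 20 of 39, against 16% of all genes. The median log2 fold change of the chains was 0.24, against 0.01 over all genes, with 25 values above 0 and 12 below. Without Null 3 the median of the chains was -0.23 against 0.01 over all genes, 28 of 39 values were below 0 (the sign of 17 of the 37 chains turned, 16 of them from above 0 to below), and the edgeR calls were 2 higher (Col6a1 and Col7a1) and 5 lower (Col4a6, Col6a6, Col11a1, Col16a1 and Col26a1), against 1.2% and 1.31% of all genes. This fit set Null 1 and 2, low in mesenchyme markers, against WT libraries of which WT 1 and 2 were high in them. With the mesenchyme covariate and all 6 libraries the median of the chains was 0.40, against -0.001 over all genes. In that fit 26 values were above 0 and 11 below. Without WT 1, WT 2 and Null 3 the median was -0.15, with 16 values above 0 and 23 below. With WT 1, WT 2 and Null 3 all left out, which leaves 1 WT and 2 null libraries that are assumed to vary like the heterozygotes, Col6a1 was still higher, Col16a1 and Col26a1 were lower (0.45% of all genes were called higher and 0.65% lower), and Col4a6 was not called (log2 fold change -0.66, edgeR adjusted p = 0.177). In the fits that left out WT 1, WT 2 or WT 3 alone, no chain was called, and without Null 1 or Null 2 only Col6a1 was. Of all genes, 0.21%, 0.174% and 0.449% were called higher without WT 1, 2 and 3, and 0.233%, 0.208% and 0.449% lower. Without Null 1 and Null 2 the shares were 0.473% and 0.615% higher, and 0.422% and 0.485% lower. With DESeq2 and all 6 libraries Col6a1 and Col7a1 were called higher and Col4a6 lower, against 1.04% and 0.891% of all genes.

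**Figure D3:**
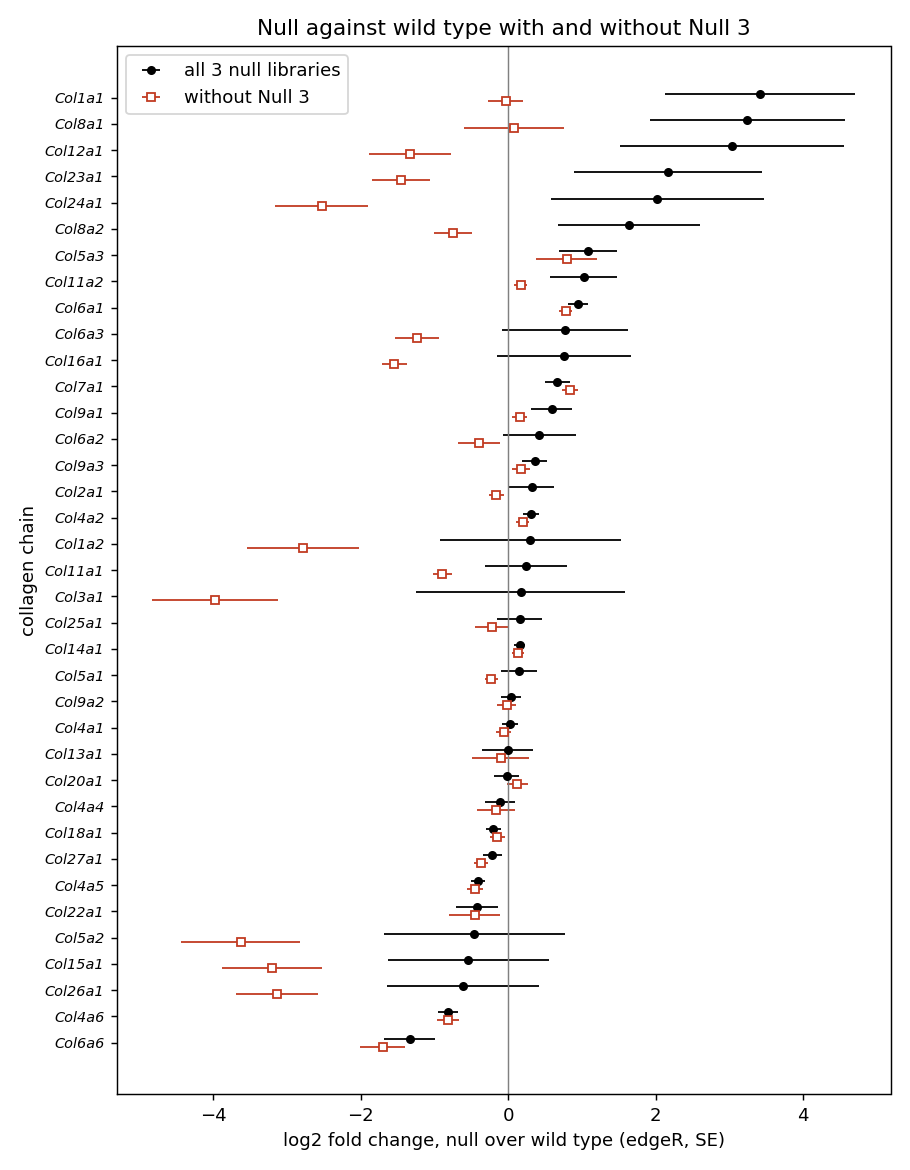
Log2 fold change of each tested chain in null over WT ducts with its standard error (edgeR), with all 3 null libraries (black) and without Null 3 (open squares). Col6a1, Col7a1, Col4a5 and Col4a6 keep their place, while chains such as Col3a1, Col23a1, Col16a1 and Col11a1 move from above 0 to below it.

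Col4a6 fell in null ducts. It codes for the alpha 6 chain of type IV collagen, which assembles with alpha 5 in basement membranes of a restricted set of epithelia and smooth muscle. Its level was 22.6, 21.3 and 18.9 CPM in WT 1, 2 and 3, 16, 15.5 and 17.9 CPM in heterozygotes 1, 2 and 3, and 13.2, 10.7 and 11.9 CPM in Null 1, 2 and 3. No library of a genotype overlapped with another genotype, in the order WT, heterozygote, null, an order that 0.739% of all genes showed and no other chain. The means were 20.9 ± 1.88, 16.5 ± 1.28 and 11.9 ± 1.22 CPM. The log2 fold change of null over WT was -0.81 (SE 0.131, edgeR adjusted p = 0.0251), which leaves 57.1% of the WT level. It missed the threshold in each fit that left out WT 1, WT 2, WT 3, Null 1 or Null 2, with values between -0.74 and -0.89, and stayed past it without Null 3.

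Its partner Col4a5, the chain mutated in X-linked Alport syndrome, was at 118, 119 and 125 CPM in WT 1, 2 and 3, 116, 97.9 and 113 CPM in heterozygotes 1, 2 and 3, and 98, 79.7 and 97.2 CPM in Null 1, 2 and 3. All null libraries lay below all WT libraries. The log2 fold change was -0.40 (SE 0.0942), which missed the threshold (edgeR adjusted p = 0.0973). The Col4a5 to Col4a6 count ratio was 5.25, 5.60 and 6.61 in WT, 7.30, 6.32 and 6.30 in heterozygote, and 7.45, 7.44 and 8.15 in null libraries 1, 2 and 3. Each null library was above each WT and heterozygote library, while WT 3 lay among the heterozygotes.

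Col4a5 and Col4a6 lie head to head on the X chromosome, with 1309 bases between their annotated starts, and Col4a1 with Col4a2 and Col4a3 with Col4a4 form such pairs on chromosomes 8 and 1. The bases before both starts of the X-linked pair, outside annotated transcripts, are printed because Col4a6 fell and all null libraries of its neighbour lay below WT, and those before Col6a1 because it was the chain called higher. The Col4a6 stretch is chrX:141474096-141474326 on the minus strand, that of Col4a5 chrX:141475169-141475369 on the plus strand, and that of Col6a1 chr10:76726169-76726294 on the minus strand, all from RefSeq's GRCm38.p6. Capitals mark a match to CCAAT, the only one of the 3 motifs searched (the TATA box as TATAAA, the CCAAT box as CCAAT and the GC box as GGGCGG, on both strands, where matches of different motifs may share bases) that these stretches hold. The stretches stop before the first base that GENCODE or RefSeq annotates as transcribed.
Col4a6: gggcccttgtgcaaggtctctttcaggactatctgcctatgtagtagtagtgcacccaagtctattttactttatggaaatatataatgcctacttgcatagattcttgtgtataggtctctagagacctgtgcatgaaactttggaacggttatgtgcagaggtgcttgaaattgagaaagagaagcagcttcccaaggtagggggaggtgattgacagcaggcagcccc
Col4a5: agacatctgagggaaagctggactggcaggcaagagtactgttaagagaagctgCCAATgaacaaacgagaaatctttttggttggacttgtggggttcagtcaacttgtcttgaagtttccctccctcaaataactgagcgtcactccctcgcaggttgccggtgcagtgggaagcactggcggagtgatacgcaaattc
Col6a1: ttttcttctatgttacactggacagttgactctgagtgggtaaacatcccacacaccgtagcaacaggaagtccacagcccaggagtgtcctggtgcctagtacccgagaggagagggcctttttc

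Over the 250 bases before each RefSeq start, which were at hand for 30 of the 39 chains, GGGCGG was found in 19 chains (63.3%, against 35.4% of 27025 genes). CCAAT was found in 12 chains (40%, against 37.5%) and TATAAA in 4 (13.3%, against 14.3%), namely Col3a1, Col11a2, Col13a1 and Col17a1. A match is a description of these letters and not of a bound site. Col4a6 and Col4a5 are among the 19 chains with GGGCGG, which lies in both in the bases next to the start that are not printed.

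Col4a1 and Col4a2, which make the alpha 1 and alpha 2 chains of all basement membranes, start 21 bases apart on opposite strands and share 22 exon bases. Col4a1 was at 612, 629.8 and 546 CPM in WT 1, 2 and 3, 544, 550.0 and 527 CPM in heterozygotes 1, 2 and 3, and 587, 558 and 682 CPM in Null 1, 2 and 3. Its groups overlapped (log2 fold change 0.03, SE 0.107, edgeR adjusted p = 0.945, and -0.061 without Null 3). Col4a2 was at 401, 431 and 379 CPM in WT 1, 2 and 3, 413, 407 and 400.5 CPM in heterozygotes 1, 2 and 3, and 457, 469 and 579 CPM in Null 1, 2 and 3. Here each null library was above each WT library, yet the difference did not pass (log2 fold change 0.31, SE 0.111, edgeR adjusted p = 0.304, and 0.20 without Null 3). The ratio of Col4a1 to Col4a2 counts, which does not depend on the scaling between libraries, was 1.53, 1.46 and 1.44 in WT, 1.32, 1.35 and 1.32 in heterozygote, and 1.28, 1.19 and 1.18 in null libraries 1, 2 and 3. The 3 genotypes did not overlap in this ratio, which was lower in heterozygotes than in WT and lowest in null ducts, including Null 3. Col4a4 was between 1.40 and 2.78 CPM over the 9 libraries and Col4a3 between 0.072 and 0.731, with no order by genotype.

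Col6a1 rose in null ducts. It codes for the alpha 1 chain of type VI collagen, and without it the classical trimer with alpha 2 and alpha 3 is not made. Its level was 48.7, 49.1 and 48.3 CPM in WT 1, 2 and 3, 56.6, 64.1 and 66 CPM in heterozygotes 1, 2 and 3, and 84.3, 83.3 and 115 CPM in Null 1, 2 and 3. The 3 genotypes did not overlap, in the order WT, heterozygote, null, which 0.883% of all genes showed and no other chain. The means were 48.7 ± 0.403, 62.3 ± 4.99 and 94.3 ± 18.1 CPM, and the log2 fold change of null over WT was 0.95 (SE 0.13, edgeR adjusted p = 0.0137). Without Null 3 it was 0.78, with an edgeR adjusted p of 0.00472, and without WT 1, WT 2 and Null 3 it was 0.80, with an edgeR adjusted p of 0.0324. In the fits that left out WT 1, WT 2 or WT 3 the value was 0.95, 0.96 and 0.95, and it was not called.

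Its partner chains were not called between null and WT. Col6a2, a neighbour on chromosome 10 that runs in the same direction, was at 34.3, 43.2 and 19.9 CPM in WT 1, 2 and 3, 20.5, 21.9 and 21.1 CPM in heterozygotes 1, 2 and 3, and 22.8, 26.4 and 82 CPM in Null 1, 2 and 3. It was high in WT 1, WT 2 and Null 3 and between 19.9 and 26.4 CPM in all others. Its log2 fold change was 0.42 (SE 0.498, edgeR adjusted p = 0.784), and -0.40 without Null 3. Without WT 1, WT 2 and Null 3 it was 0.31 (edgeR adjusted p = 0.559), with the mean log2 level of the mesenchyme markers as a covariate Col6a2 was called higher in null ducts (0.82, edgeR adjusted p = 0.0331), and each null library was above each heterozygote library. Col6a3 was at 30.2, 32.7 and 16.3 CPM in WT 1, 2 and 3, 14, 15.4 and 23.4 CPM in heterozygotes 1, 2 and 3, and 12.7, 9.81 and 113 CPM in Null 1, 2 and 3. The same 3 libraries were the highest, and its log2 fold change of 0.77 (SE 0.854, edgeR adjusted p = 0.774) became -1.23 without Null 3. The Col6a1 to Col6a2 count ratio was 1.42, 1.14 and 2.43 in WT, 2.77, 2.93 and 3.13 in heterozygote, and 3.70, 3.15 and 1.40 in null libraries 1, 2 and 3. Outside WT 1, WT 2 and Null 3 the ratio was 2.43 in WT, 2.77 to 3.13 in heterozygotes and 3.15 and 3.70 in null ducts. Col6a6, an alternative to alpha 3, was at 41.1, 36.8 and 22.3 CPM in WT 1, 2 and 3, 17.5, 19 and 12.9 CPM in heterozygotes 1, 2 and 3, and 13, 7.65 and 19.2 CPM in Null 1, 2 and 3. All null libraries lay below all WT libraries (log2 fold change -1.34, SE 0.345, edgeR adjusted p = 0.138), and without Null 3 it was called lower (-1.70, edgeR adjusted p = 0.031). The type VI chains thus had 1 member in 4 called higher, against 0.92% of all genes. Col6a6 was below 0, while Col6a2 and Col6a3 were above 0 with all libraries and below 0 without Null 3.

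Col7a1, the chain of the anchoring fibrils that tie basement membranes to the tissue below, was at 132, 124 and 156 CPM in WT 1, 2 and 3, 195, 197 and 154 CPM in heterozygotes 1, 2 and 3, and 247, 245 and 163 CPM in Null 1, 2 and 3. Null 1 and 2 were the highest libraries, and Null 3 was above each WT library but within the heterozygotes. The log2 fold change was 0.67 (SE 0.168) and missed the threshold (edgeR adjusted p = 0.126), while without Null 3 it was 0.84 and passed (edgeR adjusted p = 0.00883). DESeq2 called it higher with all libraries (0.67, DESeq2 adjusted p = 0.0013), and without WT 1, WT 2 and Null 3 edgeR did not (0.66, edgeR adjusted p = 0.106). Col26a1, a secreted chain that belongs to no larger class, was at 70.7, 112 and 27.4 CPM in WT 1, 2 and 3, 16.9, 25.8 and 22.4 CPM in heterozygotes 1, 2 and 3, and 9.74, 6.33 and 122 CPM in Null 1, 2 and 3. In the paper's single-cell data from E14.5 WT ducts, Col26a1, Col3a1 and Col1a2 are among the genes most enriched in mesenchyme. The mesenchyme markers summed here come from that same list. Col26a1 followed these markers over the libraries, and its log2 fold change was -0.61 (SE 1.03, edgeR adjusted p = 0.852). Without Null 3 it was called lower in null ducts at -3.13 (edgeR adjusted p = 0.0299). Without WT 1, WT 2 and Null 3 it was also called lower, at -1.78 (edgeR adjusted p = 0.0171), with 27.4 CPM left in WT against 9.74 and 6.33 CPM in null.

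**Figure D4:**
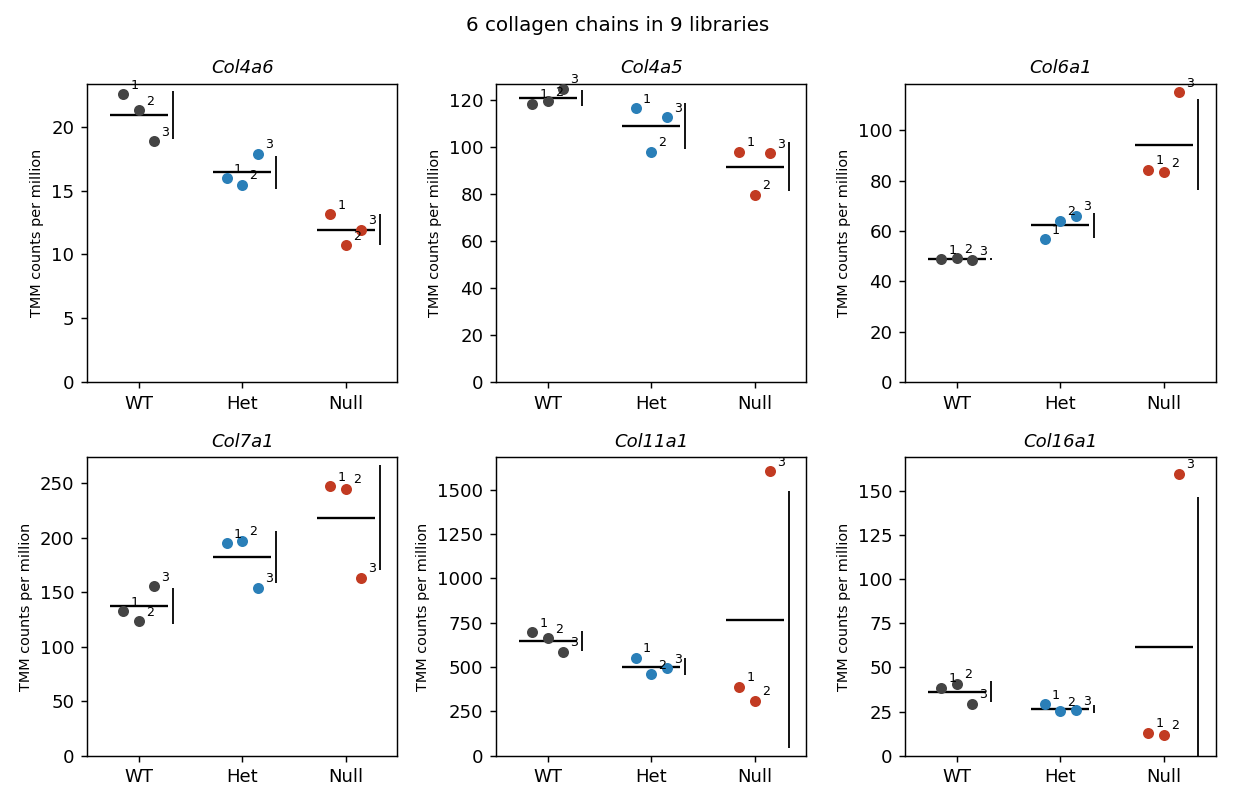
CPM of 6 chains in the 9 libraries, with numbered points for embryos, horizontal lines for means and vertical lines for the SD (n = 3, drawn down to 0 where mean minus SD is below 0). Col4a6 and Col6a1 separate the 3 genotypes, while for Col11a1 and Col16a1 Null 1 and 2 are the lowest libraries and Null 3 the highest.

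Types II, IX and XI, which build cartilage fibrils and the tectorial membrane, stood over 2-fold above Null 1 and 2 in Null 3 for 4 of their 6 chains. Col2a1 was at 5228, 5079 and 5032 CPM in WT 1, 2 and 3, 5486, 4884 and 4951 CPM in heterozygotes 1, 2 and 3, and 4490.4, 4664 and 10051 CPM in Null 1, 2 and 3. Null 1 and 2 were the lowest of the 9 libraries and Null 3 the highest, and the log2 fold change of 0.32 (SE 0.303, edgeR adjusted p = 0.734) became -0.16 without it. Col9a2 was at 2712, 2657 and 2678 CPM in WT 1, 2 and 3, 2876, 2486 and 2491 CPM in heterozygotes 1, 2 and 3, and 2304, 2995 and 3006 CPM in Null 1, 2 and 3. It did not stand out in Null 3, and its log2 fold change was 0.04 (SE 0.134, edgeR adjusted p = 0.93) and -0.020 without that library. Col9a3 was at 882, 875 and 899 CPM in WT 1, 2 and 3, 963, 851 and 864 CPM in heterozygotes 1, 2 and 3, and 867, 1126 and 1427 CPM in Null 1, 2 and 3. Null 2 and Null 3 were the highest, and the log2 fold change was 0.36 (SE 0.17, edgeR adjusted p = 0.452), or 0.17 without Null 3. Col9a1, the third chain of the type IX trimer, was at 1484 CPM in Null 3 and between 585 and 784 CPM in the others. The Col9a3 to Col9a2 ratio was 0.325, 0.329 and 0.336 in WT, 0.335, 0.342 and 0.347 in heterozygote, and 0.376, 0.376 and 0.475 in null libraries 1, 2 and 3. All null libraries were above all other libraries, by a small step in Null 1 and 2. Reads of Col9a3 and of Tcfl5 on the other strand can share 234 exon bases, but Tcfl5 held 263 counts in all against 233928 for Col9a3.

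Col11a1 and Col11a2, the alpha 1 and alpha 2 chains of type XI that set the diameter of type II fibrils, went apart. Col11a1 was at 696, 664 and 587 CPM in WT 1, 2 and 3, 553, 459 and 493 CPM in heterozygotes 1, 2 and 3, and 389, 309.9 and 1604 CPM in Null 1, 2 and 3. Null 1 and 2 were the lowest of the 9 libraries, heterozygotes lay between them and WT, and Null 3 was the highest. Its log2 fold change was 0.24 (SE 0.558, edgeR adjusted p = 0.897), and without Null 3 it was called lower (-0.90, edgeR adjusted p = 0.0127). Without WT 1, WT 2 and Null 3 it was -0.75 (edgeR adjusted p = 0.0728). Col11a2 was at 443, 388 and 412 CPM in WT 1, 2 and 3, 562, 379.7 and 403 CPM in heterozygotes 1, 2 and 3, and 469, 464 and 1603 CPM in Null 1, 2 and 3. Each null library was above each WT library, with a log2 fold change of 1.02 (SE 0.454, edgeR adjusted p = 0.425). Without Null 3 that of Col11a2 was 0.17 (edgeR adjusted p = 0.411), and without WT 1, WT 2 and Null 3 it was 0.18. Their count ratio was 1.57, 1.71 and 1.42 in WT, 0.983, 1.21 and 1.22 in heterozygote, and 0.829, 0.668 and 1.0 in null libraries 1, 2 and 3. The ratio was above 1.4 in every WT library and at or below 1.22 in all others, Null 3 included, with each WT library above each heterozygote and null library. No test was run on the ratios.

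**Figure D5:**
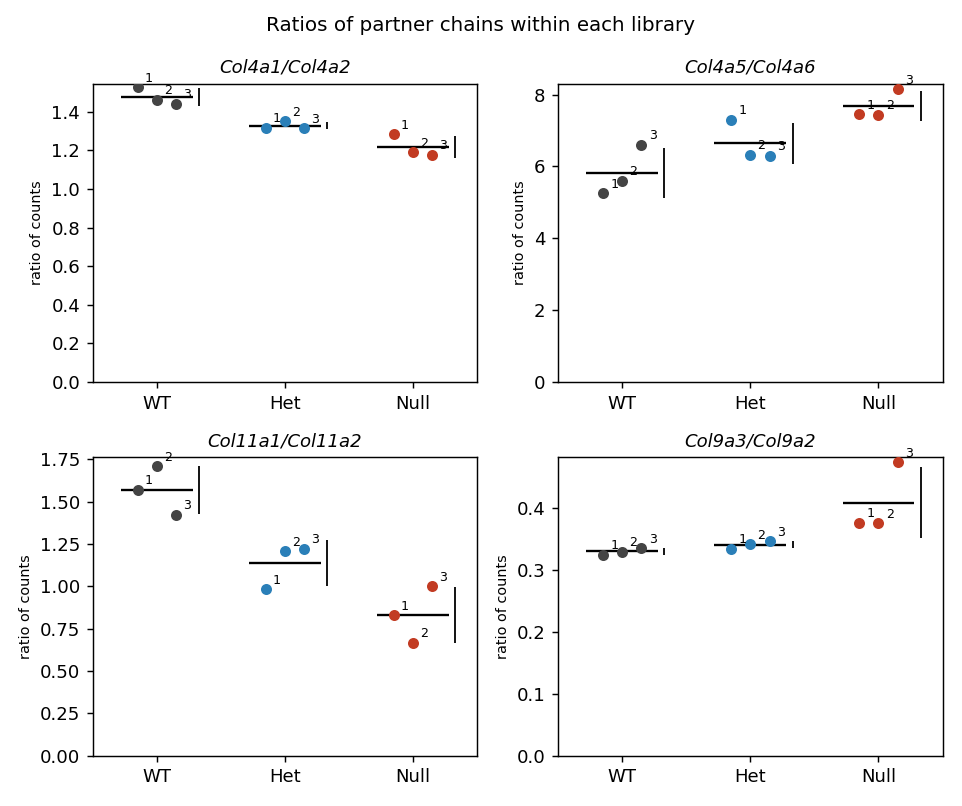
Ratio of counts of 4 pairs of partner chains in each library, with numbered points for embryos, horizontal lines for means and vertical lines for the SD (n = 3). The Col4a1 to Col4a2 ratio falls from 1.48 in WT through 1.33 to 1.22 in null ducts, and that of Col11a1 to Col11a2 from 1.57 to 0.832.

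Among the fibrillar chains of loose connective tissue, Col3a1, Col5a2 and Col1a2 were high in the same libraries of both WT and null. Col3a1, the type III homotrimer of vessels and mesenchyme, was at 136, 286 and 35.3 CPM in WT 1, 2 and 3, 9.63, 25.1 and 20.6 CPM in heterozygotes 1, 2 and 3, and 13.7, 6.0 and 499 CPM in Null 1, 2 and 3. WT 1, WT 2 and Null 3 were at 136 CPM or more and the other 6 libraries at 35.3 CPM or less, so null and WT overlapped. Its log2 fold change of 0.17 (SE 1.42, edgeR adjusted p = 0.974) became -3.97 without Null 3 (edgeR adjusted p = 0.0581) and -1.85 without WT 1, WT 2 and Null 3 (edgeR adjusted p = 0.15). Col5a2, its neighbour on chromosome 1 with 24614 bases between them, was at 48.6, 93 and 11.2 CPM in WT 1, 2 and 3, 4.53, 8.75 and 8.04 CPM in heterozygotes 1, 2 and 3, and 4.74, 3.55 and 103 CPM in Null 1, 2 and 3. Its log2 fold change of -0.46 (SE 1.23, edgeR adjusted p = 0.909) became -3.63 without Null 3 (edgeR adjusted p = 0.0643) and -1.44 without the 3 libraries (edgeR adjusted p = 0.113). Col1a2, of the type I trimer, was at 135, 279.6 and 35.5 CPM in WT 1, 2 and 3, 20.0, 36.2 and 24.1 CPM in heterozygotes 1, 2 and 3, and 28, 15.9 and 513 CPM in Null 1, 2 and 3. Both had the same 3 high libraries, and the log2 fold change of Col1a2, 0.30 (SE 1.23, edgeR adjusted p = 0.945), became -2.79 without Null 3 (edgeR adjusted p = 0.113) and -0.70 without the 3. Col1a1, whose product pairs with that of Col1a2 in type I collagen, was at 11.8, 8.97 and 7.35 CPM in WT 1, 2 and 3, 10.9, 8.64 and 7.60 CPM in heterozygotes 1, 2 and 3, and 10.7, 7.62 and 283 CPM in Null 1, 2 and 3, with a log2 fold change of 3.41 (SE 1.29, edgeR adjusted p = 0.331) and -0.036 without Null 3. It was high in Null 3 only and did not follow Col1a2 in WT 1 and 2, so the Col1a1 to Col1a2 count ratio ran from 0.0321 in WT 2 to 0.551 in Null 3. Col5a1, the partner of Col5a2, stayed between 188 and 234 CPM in 8 libraries and was at 361 in Null 3.

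Among the FACIT chains that coat such fibrils, Col12a1 was at 24.9, 52.9 and 27.9 CPM in WT 1, 2 and 3, 11.5, 25.2 and 13.9 CPM in heterozygotes 1, 2 and 3, and 22.9, 5.52 and 841 CPM in Null 1, 2 and 3. Null 3 was far above all others, and the log2 fold change of 3.03 (SE 1.52, edgeR adjusted p = 0.48) became -1.33 without it. Col16a1 was at 38.5, 40.8 and 29.5 CPM in WT 1, 2 and 3, 29.1, 25 and 25.7 CPM in heterozygotes 1, 2 and 3, and 13, 11.9 and 159.9 CPM in Null 1, 2 and 3. Here Null 1 and 2 lay below every heterozygote and WT library, and Null 3 above. Without Null 3 Col16a1 was called lower (log2 fold change -1.54, edgeR adjusted p = 0.00445), and without WT 1, WT 2 and Null 3 it was -1.24 (edgeR adjusted p = 0.00584), against 0.76 (edgeR adjusted p = 0.788) with all libraries. Col14a1, undulin, was the steadiest, between 143 and 171 CPM over all 9 libraries. Its null libraries were all above its WT libraries, by a log2 fold change of 0.15 (SE 0.0696, edgeR adjusted p = 0.434).

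Col18a1 was at 1709.8, 1664 and 1698 CPM in WT 1, 2 and 3, 1748, 1639 and 1646 CPM in heterozygotes 1, 2 and 3, and 1457, 1603 and 1365 CPM in Null 1, 2 and 3. All null libraries were below all WT and heterozygote libraries, with a log2 fold change of -0.20 (SE 0.102, edgeR adjusted p = 0.486). Col15a1, the other multiplexin, found around vessels and muscle, was at 34, 29.1 and 6.64 CPM in WT 1, 2 and 3, 5.34, 5.80 and 6.07 CPM in heterozygotes 1, 2 and 3, and 3.26, 1.84 and 43.1 CPM in Null 1, 2 and 3. WT 1, WT 2 and Null 3 were high, as for the endothelial markers, which summed to 87.8, 72.2 and 49.6 CPM in these libraries and to at most 8.11 CPM in the others. Its log2 fold change was -0.54 (SE 1.09, edgeR adjusted p = 0.879). Without Null 3 that of Col15a1 was -3.20 (edgeR adjusted p = 0.0556), and without WT 1, WT 2 and Null 3 it was -1.40 (edgeR adjusted p = 0.09).

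The type VIII chains form hexagonal networks, best known from Descemet's membrane of the cornea, and were low here. Col8a2 was at 4.48, 6.97 and 5.29 CPM in WT 1, 2 and 3, 2.41, 3.67 and 3.47 CPM in heterozygotes 1, 2 and 3, and 3.59, 3.07 and 45.8 CPM in Null 1, 2 and 3. Its log2 fold change of 1.64 (SE 0.96, edgeR adjusted p = 0.56) became -0.75 without Null 3. Col8a1 was at most 0.518 CPM in 8 libraries and 8.62 CPM in Null 3 (log2 fold change 3.24, SE 1.32, edgeR adjusted p = 0.376), and its log2 fold change was 0.077 without Null 3. Of the transmembrane chains, Col25a1, which motor axons need to enter muscle, was at 20.2, 29.9 and 17.6 CPM in WT 1, 2 and 3, 15.9, 19.2 and 16.7 CPM in heterozygotes 1, 2 and 3, and 20.8, 17.9 and 37 CPM in Null 1, 2 and 3. The groups overlapped (log2 fold change 0.15, SE 0.303, edgeR adjusted p = 0.876, and -0.23 without Null 3). Col23a1 was at 8.18, 12.9 and 4.81 CPM in WT 1, 2 and 3, 2.13, 4.21 and 4.35 CPM in heterozygotes 1, 2 and 3, and 2.93, 3.36 and 110.3 CPM in Null 1, 2 and 3. It stood high in Null 3, with a log2 fold change of 2.16 (SE 1.28, edgeR adjusted p = 0.562) that became -1.46 without that library.

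Of the 37 chains tested between null and WT, 6 had all null libraries above all WT libraries, against 10.1% of all genes, and 4 had them below, against 8.91%. Those above were Col4a2, Col5a3, Col6a1, Col7a1, Col11a2 and Col14a1, and those below were Col4a5, Col4a6, Col6a6 and Col18a1.

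In heterozygotes against WT, 0 of 38 chains were called by edgeR's quasi-likelihood test, where 0.0521% of all genes tested were called higher and 0.0984% lower, and DESeq2 called Col3a1, Col5a2, Col6a6 and Col8a2 lower, against 0.843% of all genes. Without WT 3, edgeR called 10 chains lower, Col1a2, Col3a1, Col5a2, Col6a2, Col6a3, Col6a6, Col15a1, Col16a1, Col23a1 and Col26a1, and Col7a1 higher, against 2.59% and 0.266% of all genes. With all 6 libraries, at an unadjusted p under 0.05 18 chains were found (47.4%, against 13.1% of all genes), and the median log2 fold change was -0.11, against 0.00 over all genes. In 1 chain all heterozygote libraries were above all WT libraries (against 9% of all genes) and in 11 they were below (28.9%, against 8.96%). WT 1 and 2 were high in the mesenchyme markers, all 16 of which had lower levels in heterozygotes, and without WT 1, WT 2 and Null 3 there were 2 chains at an unadjusted p under 0.05, against 3.79% of all genes, with a median of -0.04 and 0 edgeR calls, where 0.0167% of all genes were called higher and 0.0444% lower. Col6a1 was the chain that was higher (log2 fold change 0.35, SE 0.0656, edgeR adjusted p = 0.0631). Col4a6 was among the lower ones (log2 fold change -0.35, SE 0.101, edgeR adjusted p = 0.16), with Col4a5 at -0.15 (SE 0.0635, edgeR adjusted p = 0.351). Col7a1 was at 0.41 (SE 0.104, edgeR adjusted p = 0.117) and 0.23 without WT 1, WT 2 and Null 3, where Col4a6 was at -0.20. Col6a2 was at -0.62 (SE 0.221) and 0.09 without the 3 libraries, and Col6a3 at -0.58 (SE 0.258) and 0.12 without them.

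In null against heterozygote ducts, which differ in 1 functional allele, 0 of 37 chains were called by edgeR's quasi-likelihood test, where 0.293% of all genes were called higher and 0.322% lower, and DESeq2 called Col6a1 higher and no chain lower, against 0.614% and 0.504% of all genes. At an unadjusted p under 0.05 there were 12 chains (32.4%, against 11.4% of all genes). The libraries did not overlap for 5 chains that were higher (against 9.08% of all genes) and 2 that were lower (against 9.06%). The higher ones were Col4a1, Col4a2, Col6a1, Col6a2 and Col14a1, and the lower ones Col4a6 and Col18a1. Col6a1 had a log2 fold change of 0.60 (SE 0.14, edgeR adjusted p = 0.149) and Col4a6 of -0.46 (SE 0.133, edgeR adjusted p = 0.242). Col4a5 was at -0.25 (SE 0.11), Col7a1 at 0.26 (SE 0.166), Col6a2 at 1.05 (SE 0.439) and Col6a3 at 1.36 (SE 0.833). Without Null 3 these were 0.43 for Col7a1, 0.22 for Col6a2 and -0.65 for Col6a3. The heterozygotes had low mesenchyme markers in all 3 libraries, so that leaving out Null 3 alone left 5 libraries with low mesenchyme markers. These still differed in Matn4, in the melanocyte markers, in the blood markers and in the sum of the epithelial markers. The median log2 fold change of the chains went from 0.60 with Null 3 (30 values above 0 and 7 below) to -0.14 without it (16 above and 21 below), against 0.01 over all genes in both. In that fit Col16a1 (-1.09, edgeR adjusted p = 0.00366) and Col26a1 (-1.44, edgeR adjusted p = 0.0195) were called lower, against 0.573% of all genes, and no chain was called higher, against 0.459%.

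Of the genes that make, trim, bind and break down collagen, edgeR called 1 lower in null than in WT ducts (against 0.786% of all genes) and 0 in the other comparisons. None of the 20 biosynthesis genes tested (prolyl and lysyl hydroxylases, glycosyltransferases and chaperones) was called in any comparison by edgeR. Without Null 3, P4ha3, a subunit of prolyl 4-hydroxylase, was called lower in null than in WT ducts. At an unadjusted p under 0.05 there were 2 between null and WT (10%, against 12.2% of all genes), 3 between heterozygote and WT (15%, against 13.1%) and 4 between null and heterozygote (20%, against 11.4%). DESeq2 called Colgalt2 higher in null than in heterozygote ducts. Their median log2 fold change of null over WT was 0.10 against 0.01 over all genes. Colgalt2, which adds galactose to hydroxylysine, had the smallest p of the list. It was at 80.8, 60.1 and 70.4 CPM in WT 1, 2 and 3, 79.7, 52.2 and 55 CPM in heterozygotes 1, 2 and 3, and 92.2, 105 and 85.9 CPM in Null 1, 2 and 3. All null libraries were above all others (log2 fold change 0.42, SE 0.122, edgeR adjusted p = 0.193).

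Of 14 genes for processing and cross-linking, 1 was called lower in null ducts and 0 higher, against 0.786% and 0.92% of all genes, with a list median of -0.02. At an unadjusted p under 0.05 there were 2 between null and WT (14.3%, against 12.2% of all genes), 7 between heterozygote and WT (53.8%, against 13.1%) and 6 between null and heterozygote (46.2%, against 11.4%). Pcolce2, which enhances the cleavage of procollagen C-propeptides, was at 46.3, 41.8 and 29.5 CPM in WT 1, 2 and 3, 29.8, 26.5 and 31.9 CPM in heterozygotes 1, 2 and 3, and 9.86, 10.2 and 17.4 CPM in Null 1, 2 and 3. All null libraries were below every other library, and the log2 fold change was -1.66 (SE 0.259, edgeR adjusted p = 0.0231), to 31.8% of WT. With DESeq2, Loxl1, Tll1 and Tll2 of this list were lower in heterozygotes than in WT (without WT 3, edgeR called these 3, Lox and Pcolce2 lower), and Lox higher and Pcolce2 lower in null than in heterozygote ducts. The WT libraries left in the fit without WT 3 were those high in mesenchyme markers. In heterozygotes Pcolce2 was at -0.42 against WT (SE 0.148, edgeR adjusted p = 0.259), and null against heterozygote ducts at -1.24 (SE 0.223, edgeR adjusted p = 0.0626). Without Null 3 the latter was called (-1.55, edgeR adjusted p = 5.83e-04). Pcolce2 was also called lower in null than in WT ducts without WT 1, WT 2 and Null 3. Between null and WT it missed the threshold in the fits without WT 1, WT 2, Null 1 or Null 2, with values between -1.52 and -1.60.

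None of the 15 fibril partners, 10 receptors and 11 turnover genes tested was called in any comparison by edgeR, with medians of 0.30, 0.02 and 0.15 between null and WT. At an unadjusted p under 0.05 there were 4, 4 and 0 between null and WT (26.7%, 40% and 0%, against 12.2% of all genes). Between heterozygote and WT there were 5, 5 and 6 (33.3%, 50% and 54.5%, against 13.1%), and between null and heterozygote 7, 2 and 0 (46.7%, 20% and 0%, against 11.4%). Without Null 3, edgeR called the basement membrane linker Nid2, the adhesion receptor Adgrg6 and the gelatinase Mmp2 lower in null than in WT ducts, against 1.31% of all genes, and Nid2 lower in null than in heterozygote ducts, against 0.573%. Without WT 3 it called Bgn, Nid1, Nid2, Ddr2, Itga1, Ctsk, Mmp9, Mmp16 and Timp3 lower in heterozygotes than in WT, against 2.59% of all genes. That fit set WT 1 and 2, high in mesenchyme markers, against heterozygotes low in them, and Bgn is itself one of the 16 mesenchyme markers. DESeq2 called Adgrg6 lower in null against WT, and Bgn, Ddr2, Itga1 and Mmp16 lower in heterozygotes against WT. Sparc, a collagen chaperone of the matrix, was at 1942, 1864 and 1998 CPM in WT 1, 2 and 3, 2079, 1808 and 1899 CPM in heterozygotes 1, 2 and 3, and 2206, 2918 and 2415 CPM in Null 1, 2 and 3. All null libraries were above all others, below the threshold (log2 fold change 0.37, SE 0.13, edgeR adjusted p = 0.287). Adgrg1, an adhesion receptor that binds type III collagen, was at 28.8, 30.2 and 30.9 CPM in WT 1, 2 and 3, 28.3, 29.9 and 27.8 CPM in heterozygotes 1, 2 and 3, and 22.6, 20.7 and 25.9 CPM in Null 1, 2 and 3. Its null libraries were the 3 lowest (log2 fold change -0.39, SE 0.114, edgeR adjusted p = 0.202). Timp1, an inhibitor of collagenases, was at 1.85, 2.15 and 1.56 CPM in WT 1, 2 and 3, 1.85, 1.98 and 1.94 CPM in heterozygotes 1, 2 and 3, and 1.28, 2.61 and 8.92 CPM in Null 1, 2 and 3, with only Null 3 apart (log2 fold change 1.19, SE 0.631, edgeR adjusted p = 0.509), and 0.080 without it.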

How the data were processed

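RNA from the cochlear ducts of single E14.5 embryos was read as TruSeq mRNA libraries, 50-base single reads on an Illumina HiSeq. According to the methods, STAR was used for alignment to mm10, Cufflinks for assembly and DESeq2 for the genotypes, and the submitters' processing notes also name cutadapt 1.13 and HTSeq 0.6.1p1. The authors deposited raw counts per Ensembl gene. The strand setting is not given in the sources used here, so reads of overlapping genes on opposite strands cannot be told apart. GENCODE vM21 (mm10) held 54165 of the 54232 gene identifiers and gave symbols, exon lengths and positions. Promoter sequences are from RefSeq GRCm38.p6.

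Samples were grouped by labelled genotype. Each pair of genotypes was fitted on its own 6 libraries over all genes with edgeR 4.0.16 in R 4.3.3 (TMM, filterByExpr, quasi-likelihood test, Benjamini-Hochberg), with calls at an adjusted p under 0.05 and a log2 fold change past 0.5 in size. The fits were tested on simulated data. CPM is the count per 1000000 of the TMM-scaled library, and ratios between libraries used a pseudocount of 0.5 CPM. An exact permutation test of 3 against 3 libraries cannot give a two-sided p below 0.1. No libraries of a genotype were duplicates (chi-square per gene of 5.53 or more for each pair within a genotype).

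The members and lists were chosen with earlier results of these data known. Full statistics are given for chains called in any comparison, for the 2 chains of each class with the highest length-scaled WT level and for partners of a called chain, and, of each pathway list, for called genes or else the gene with the smallest p between null and WT. For heterozygotes they are given for the called chains, their partners and Col7a1. Col1a1, Col1a2, Col3a1, Col5a2, Col6a6, Col11a1, Col12a1, Col14a1 and Col16a1 were added after their values were seen. Alternatives were DESeq2 1.42.0, other scalings and filters, one fit over all 9 libraries, a block for the replicate number, a covariate for mesenchyme markers, and leaving out libraries; leaving out WT 1, WT 2 and Null 3 together was chosen after seeing the data. Protein sequences were not used here.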

Additional observations from a re-analysis of the deposited data

How the results depend on the processing

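Leaving out 1 library at a time, the chains called between null and WT ran from 0 to 2 higher and 0 to 5 lower and the pathway genes from 0 to 5 lower, between heterozygote and WT from 0 to 1 and 0 to 10 chains and 0 to 14 pathway genes lower, and between null and heterozygote from 0 to 2 chains and 0 to 2 pathway genes lower. Of all genes, these fits called 0.174% to 1.2% higher and 0.208% to 1.31% lower between null and WT. The shares were 0% to 0.266% higher and 0% to 2.59% lower between heterozygote and WT, and 0.0344% to 0.573% lower between null and heterozygote. Among the chains named by the rule and Col6a6, Col11a1, Col14a1 and Col16a1, the log2 fold change of null over WT changed sign in such fits for Col11a1 (-0.90 to 0.62), Col16a1 (-1.54 to 1.25), Col23a1 (-1.46 to 2.72), Col25a1 (-0.23 to 0.42), Col2a1 (-0.16 to 0.52), Col4a1 (-0.061 to 0.092), Col6a2 (-0.40 to 0.73), Col6a3 (-1.23 to 1.25), Col8a2 (-0.75 to 2.15) and Col9a2 (-0.020 to 0.16), and, of the chains followed in the heterozygote comparisons (Col4a5, Col4a6, Col6a1, Col6a2, Col6a3 and Col7a1), of null over heterozygote for Col6a3 (-0.65 to 1.84). Each except Col4a1, which also turned without WT 3 (-0.028), and Col9a2, which also turned without Null 2 (-0.013), did so only without Null 3. Without WT 1, WT 2 and Null 3, a choice made after seeing the data, there were 2 chains and 2 pathway genes lower in null than in WT and 2 and 2 lower than in heterozygotes, and, among the same chains, the signs of Col9a2 (-0.016), Col2a1 (-0.14), Col8a2 (-0.67), Col23a1 (-0.61), Col6a3 (-0.54), Col11a1 (-0.75) and Col16a1 (-1.24) turned for null over WT, of Col6a2 (0.089) and Col6a3 (0.12) for heterozygote over WT and of Col6a3 (-0.65) for null over heterozygote. Over all tested chains, 17 of 37 turned between null and WT without Null 3 and 14 of 37 without the 3 libraries, 16 of 37 turned between null and heterozygote in either fit, and 10 of 38 between heterozygote and WT without the 3 libraries. With the mesenchyme covariate 1, 11 and 11 chains turned in these comparisons, and with the replicate block 7, 1 and 0. With the mesenchyme covariate 3 chains were higher and 2 lower and 4 pathway genes higher between null and WT (against 1.05% of all genes higher and 0.786% lower), and 1 chain and 2 pathway genes were lower between null and heterozygote (against 0.768%). Of the chains followed in the heterozygote comparisons, Col6a2 (0.19) and Col6a3 (0.18) turned for heterozygote over WT and Col6a3 (-0.31) for null over heterozygote.

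The replicate numbers did not pair the libraries (mean correlation of same-numbered deviations 0.0252, from -0.318 to 0.391). With the replicate number as a block, 1 chain was higher and 0 lower and 0 pathway genes lower between null and WT (against 0.379% of all genes higher and 0.396% lower), 6 chains and 5 pathway genes were lower between heterozygote and WT (against 0.955%), and 1 pathway gene was lower between null and heterozygote (against 0.176%). Among the chains named by the rule and Col6a6, Col11a1, Col14a1 and Col16a1, the null over WT values of Col23a1 (-0.088), Col6a3 (-0.25), Col11a1 (-0.21) and Col16a1 (-0.45) turned. DESeq2 called 2 chains higher and 2 pathway genes lower between null and WT, 4 chains and 7 pathway genes lower between heterozygote and WT, and 1 chain and 2 pathway genes higher and 1 lower between null and heterozygote. With no filter on low counts there were 2 chains higher, 2 lower and 1 pathway gene higher between null and WT (against 0.834% of all genes higher and 0.653% lower), 12 chains and 15 pathway genes lower between heterozygote and WT (against 1.8%), and 6 chains and 5 pathway genes higher and 1 lower between null and heterozygote (against 0.711% and 0.435%). Between null and heterozygote, 1 pathway gene was lower with no composition factor (against 0.34% of all genes), and 1 chain was higher and 1 pathway gene lower with all 9 libraries in one fit (against 0.444% and 0.478%). The cause of these shifts was not tested. The 3 libraries per genotype limit what a fold change under the threshold can show.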
